A study of Homo sapiens with 18 samples.

Results

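The untreated baselines of 2 human lung cancer lines, SNU2535 and NCI-H3122, were compared across all genes that either line expressed. SNU2535 (3 libraries) and NCI-H3122 (3 libraries) supply vehicle controls of a study of TRI-611, which its title describes as a molecular glue degrader of ALK. The labels give non-small cell lung cancer as the cell type and WT as the genotype of both lines. Cells of both were grown in RPMI medium with serum and received DMSO for 3 h. These 6 libraries are part of 18 in the series. The same lines with TRI-611 (6 libraries) and DMSO-treated NCI-H2228 cells (3 libraries) serve only to set the values in context. Each line is an established culture from 1 tumour, so a difference between them is a difference between 2 lines and not between 2 classes of tumour. A gene entered the comparison when 3 or more of the 6 libraries had it at 1 TPM or above, and 16593 of 57500 genes in the table did. TPM are transcript levels corrected for the length of the gene and the total of the library.

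ALK is a receptor tyrosine kinase that is silent in normal lung. Both lines are known as carriers of EML4-ALK, which arises when an inversion on chromosome 2 joins the 5′ part of EML4 to the kinase part of ALK. The fusion protein signals through RAS, RAF, MEK and ERK, through PI3K and AKT, and through STAT3. Adenocarcinomas of the lung keep parts of the programme of the distal airway, where NKX2-1 drives surfactant genes and glandular cells display mucins and cytokeratins. Alongside the fusion, lines differ in lineage factors, in how firmly they hold the epithelial state, in the receptors and ligands around ALK, in innate immune tone and in metabolism, and those layers are taken in turn.

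The lines differed over most of the transcriptome. On the log2(TPM + 1) scale, limma called 13361 genes at an adjusted p under 0.05 (80.5% of those tested), 7890 higher in SNU2535 (47.6%) and 5471 lower (33.0%). At least 2-fold differences numbered 5734 (34.6%), of which 3829 were higher (23.1%) and 1905 lower (11.5%) in SNU2535, and 82.1% of genes had values that did not overlap between the lines. Every gene called higher or lower from here on passed this test. Every difference is SNU2535 minus NCI-H3122 on the log2(TPM + 1) scale. On it 1 is a 2-fold change for a well expressed gene and less than the true fold for a gene near 0. Libraries of 1 line correlated at r = 0.9898 to 0.9909 in SNU2535 and at r = 0.9918 to 0.9924 in NCI-H3122 across tested genes, and libraries of different lines at r = 0.812 to 0.818 (genes are not independent replicates). Mitochondrially encoded genes took 8.70% ± 1.18 of TPM in SNU2535 and 11.2% ± 1.52 in NCI-H3122 (SD, n = 3 each). The 100 most abundant genes took 27.5% ± 0.857 in SNU2535 and 34.4% ± 1.21 in NCI-H3122. The median difference over all tested genes was 0.17; median-ratio scaling moved it by -0.18 and quantile normalization by -0.26. Under those scalings the called genes split into 6788 higher and 6695 lower, and into 6298 higher and 7280 lower, so list medians are to be read beside the 0.17 of all genes. Counts of list members at least 2-fold higher or lower are likewise to be read beside 23.1% and 11.5%. Means are given ± SD (n = 3 each) throughout. A gene that passed the filter only through the line where it is high had to differ, and the counts over lists are therefore descriptions. Whether the libraries of a line are separate cultures is not stated in the labels, and p-values therefore reflect the spread between these samples only, which may be technical.

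**Figure D1:**
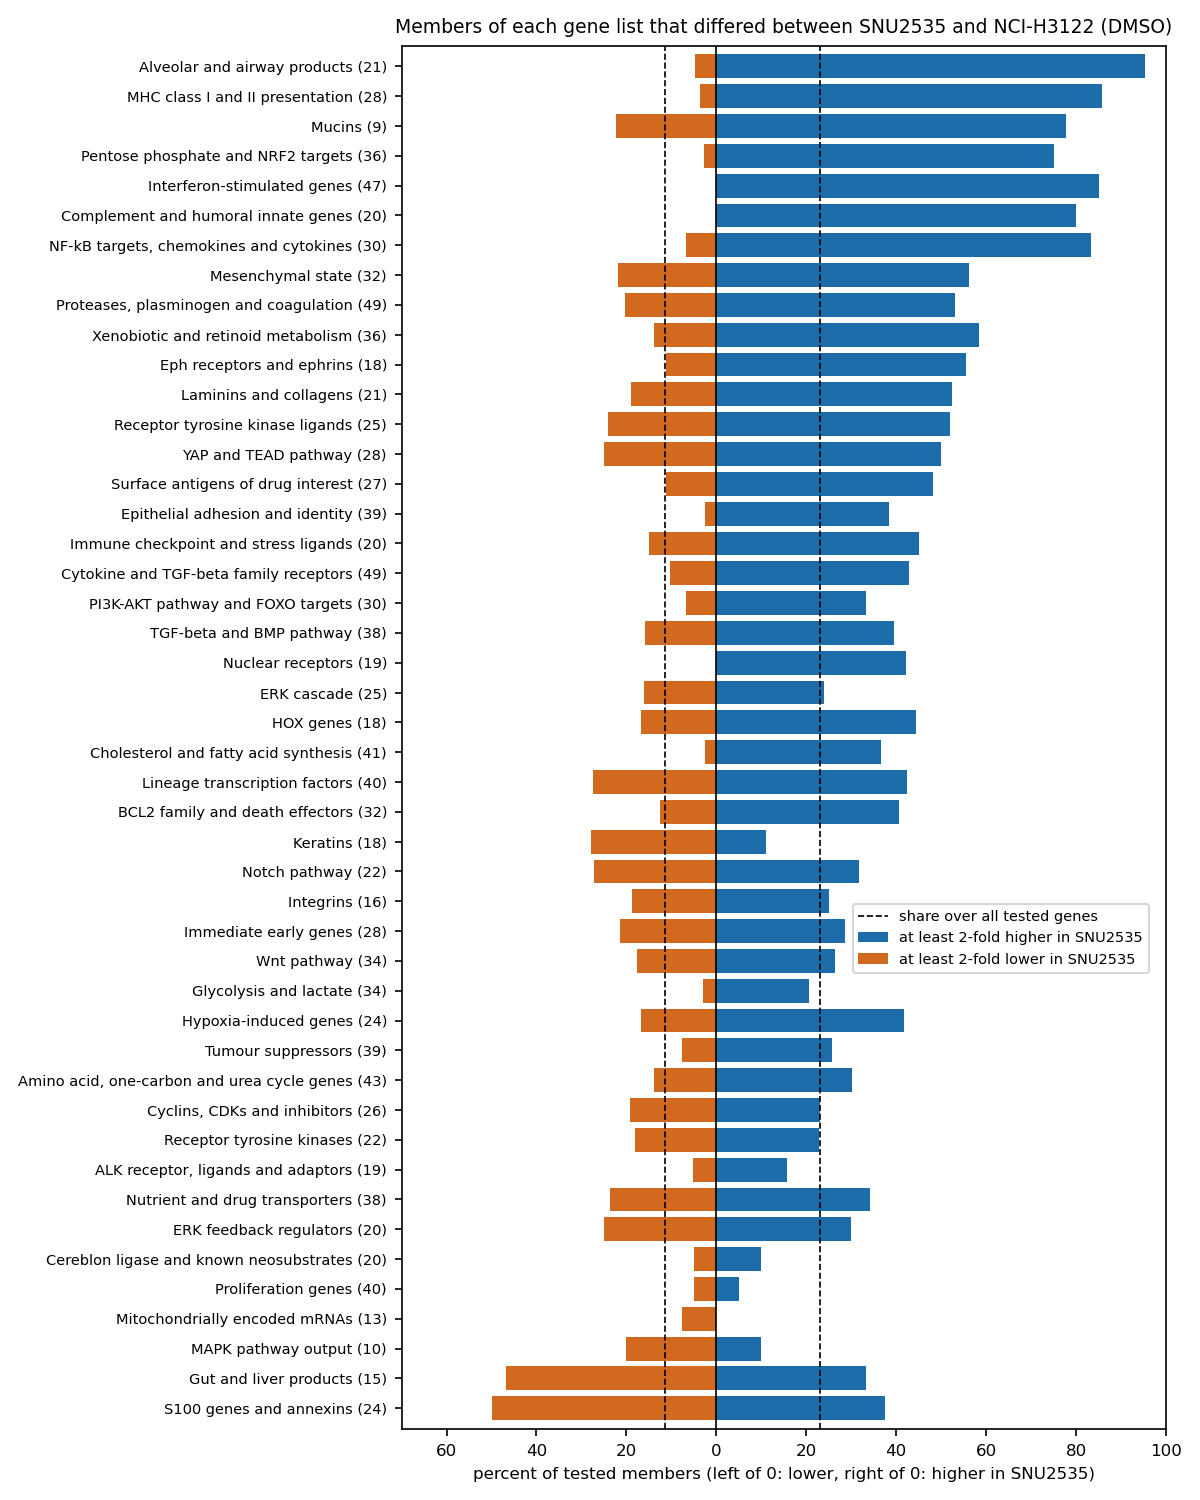
Percent of the tested members (number in brackets) of each gene list shown, those with 9 or more tested members, that were called at least 2-fold higher (blue, right of 0) or lower (orange, left of 0) in SNU2535 than in NCI-H3122, with lists ordered by median difference. Dashed lines mark 23.1% and 11.5%, the shares over all tested genes; alveolar products, antigen presentation, interferon-stimulated genes and NRF2 targets lie far to the right, and S100 genes and gut products reach furthest to the left of the lists shown.

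The largest differences set a small number of abundant transcripts of 1 line against far lower levels or none in the other. MUC21, a transmembrane mucin, had 653, 663 and 664 TPM in SNU2535, against a listed 0 in every NCI-H3122 library (difference 9.37, SE 0.037, limma adjusted p = 2.45e-11). AKR1B10, an aldo-keto reductase, had 1493, 1539.6 and 1557 TPM in SNU2535, against 1.78, 1.17 and 1.203 TPM in NCI-H3122, a difference of 9.34. Reads could be shared with its close copy AKR1B15, so its exact level is uncertain. BST2, the interferon-induced tetherin that holds budding virus at the cell surface, had 514, 538 and 532 TPM in SNU2535, against a listed 0 in every NCI-H3122 library. Genes with the 12 largest differences in each direction were picked for size and lack of overlap. Their p-values and separation follow from that choice and are descriptions. In MUC21, AKR1B10 and BST2, NCI-H3122 lay at or near 0. In the other direction KRT17, a keratin of basal and wounded epithelium, had 0, 0.0696 and 0.106 TPM in SNU2535, against 547, 531 and 560.2 TPM in NCI-H3122 (difference -9.01, SE 0.052, limma adjusted p = 4.69e-11). SNRPN, an imprinted splicing gene whose annotation overlaps SNURF, was listed at 0 in all SNU2535 libraries, against 292, 284 and 282 TPM in NCI-H3122. IGF2, an imprinted growth factor that activates IGF1R, had 0.0496, 0.169 and 0.172 TPM in SNU2535, against 159, 152 and 151 TPM in NCI-H3122. The remaining genes among the 12 largest in each direction are RARRES3, PDZK1IP1, CXCL17, SLC34A2, NAPSA, NCCRP1, CHI3L1, ALPPL2 and SLC43A3 on the SNU2535 side, and IGFL1, SPANXC, TSPYL1, CDH6, MMP1, TFF1, SMOC1, FBN2 and CTHRC1 on the NCI-H3122 side. Their differences ran from 7.98 to 8.45 apart from NAPSA at 9.31 on the SNU2535 side, and from -5.68 to -7.21 on the NCI-H3122 side. ALPPL2 and SPANXC have near-identical copies between which counting could have split reads. NCI-H2228 had high levels of BST2 (507 ± 20 TPM) and AKR1B10 (1527 ± 24 TPM), and little MUC21 (0.576 ± 0.41 TPM).

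The first question was the driver itself. ALK (chr2:29192774-29921566, minus strand) had 22.5, 26.6 and 25.3 TPM in SNU2535, against 17.3, 15.3 and 15.9 TPM in NCI-H3122, and the lowest SNU2535 library lay above the highest NCI-H3122 library. The difference was 0.59 (SE 0.075, limma adjusted p = 1.64e-04), and 0.34 under quantile normalization. NCI-H2228 averaged 11.03 ± 0.14 TPM, the lowest of the lines. EML4 (chr2:42169350-42332548, plus strand), the fusion partner whose promoter drives the fusion, had 39.95, 37.3 and 37.6 TPM in SNU2535, against 145, 137 and 142 TPM in NCI-H3122. It went the other way, with a difference of -1.86 (SE 0.040, limma adjusted p = 8.88e-09). The 20 tested protein-coding genes nearest to EML4 had a median difference of -0.61, and those nearest to ALK 0.13; their part in either result was not tested. Values per gene do not separate the fusion from the unrearranged alleles. Of the 21 genes of the ALK receptor, its ligands and adaptors listed, 19 passed the filter on low values. Of those, 3 were at least 2-fold higher and 1 at least 2-fold lower in SNU2535 (median difference 0.16). The docking protein GAB1 had 10.1, 8.95 and 10.3 TPM in SNU2535, against 1.03, 1.11 and 0.843 TPM in NCI-H3122. SOS2, an exchange factor that loads RAS with GTP, was also higher (SNU2535 29.1 ± 1.8, NCI-H3122 8.57 ± 0.62 TPM), as was the insulin receptor substrate IRS2 (SNU2535 100.8 ± 7.6, NCI-H3122 36.3 ± 1.1 TPM). PTPN11, the SHP2 phosphatase that carries receptor signals to RAS, was lower by less than 2-fold (SNU2535 68.7 ± 0.11, NCI-H3122 133 ± 2.5 TPM, difference -0.94). So was the heparin-binding factor MDK (SNU2535 99.2 ± 2.4, NCI-H3122 197 ± 5.6 TPM, difference -0.98).

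Lineage transcription factors differed by member, and NKX2-1 and HOPX were higher in SNU2535 while FOXA1, SOX2, TP63, CDX2 and BARX1 were lower. NKX2-1 (chr14:36516392-36521149, minus strand), the transcription factor that specifies lung and thyroid epithelium, had 328, 360.4 and 363 TPM in SNU2535, against 134, 116 and 124 TPM in NCI-H3122, a difference of 1.48 (SE 0.062, limma adjusted p = 3.08e-07). Both lines thus expressed it strongly, and the groups did not overlap. FOXA1, a pioneer factor that opens chromatin in foregut epithelia, had 21.9, 22.03 and 21.8 TPM in SNU2535, against 177, 165 and 176 TPM in NCI-H3122, while its relative FOXA2 was higher in SNU2535 (SNU2535 55.97 ± 3.0, NCI-H3122 23.2 ± 1.7 TPM). HOPX, which marks alveolar type I cells in the lung, had 29.2, 27.5 and 27.8 TPM in SNU2535, against 0.372, 0.472 and 0.397 TPM in NCI-H3122. NCI-H3122 in turn held factors of other epithelia. SOX2, a factor of basal airway and squamous cells, had 4.01, 2.53 and 3.74 TPM in SNU2535, against 45.3, 36.7 and 39.02 TPM in NCI-H3122. SOX21 averaged 2.29 ± 0.11 TPM in SNU2535 and 40.1 ± 0.91 TPM in NCI-H3122. TP63, which maintains basal cells, averaged 14.1 ± 0.34 TPM in SNU2535 and 33.3 ± 0.75 TPM in NCI-H3122. The intestinal factor CDX2 was listed at 0 in SNU2535 and had 4.04, 4.79 and 4.34 TPM in NCI-H3122. BARX1, a homeobox factor of the developing stomach and jaw, had 0.349, 0.199 and 0.151 TPM in SNU2535, against 17.6, 20.3 and 19.1 TPM in NCI-H3122. GATA6 (SNU2535 5.78 ± 0.30, NCI-H3122 10.8 ± 0.59 TPM) and SOX9 (SNU2535 21.1 ± 1.6, NCI-H3122 30.9 ± 1.4 TPM) were lower in SNU2535 by less than 2-fold, and HNF4A was listed under 1 TPM in every library and was not tested. Among 58 listed lineage transcription factors, 40 were tested. In SNU2535, 17 of these were higher and 11 lower by at least 2-fold, with a median difference of 0.47. The 20 protein-coding neighbours of NKX2-1 had a median difference of -1.91 and those of FOXA1, on the same arm of chromosome 14, -1.18; the part of position was not tested.

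Most products of alveolar and airway cells were higher in SNU2535. Of the 31 alveolar and airway products listed, 21 passed the filter on low values. Of those, 20 were at least 2-fold higher and 1 at least 2-fold lower in SNU2535 (median difference 4.05). NAPSA, the aspartic protease that matures surfactant protein B, had 649, 716 and 695 TPM in SNU2535, against 0.0929, 0.122 and 0.0391 TPM in NCI-H3122. SFTPB, that surfactant protein, had 65.6, 68.2 and 71.8 TPM in SNU2535, against 0.05400, 0.107 and 0.03400 TPM in NCI-H3122. SLC34A2, the phosphate importer of alveolar type II cells, had 310.4, 323 and 318 TPM in SNU2535, against 0.165, 0.156 and 0.149 TPM in NCI-H3122. Each was abundant in SNU2535 and below 1 TPM in NCI-H3122. CXCL17, a chemokine of mucosal surfaces, averaged 719 ± 9.0 TPM in SNU2535 and 1.62 ± 0.49 TPM in NCI-H3122. Mesothelin MSLN averaged 348 ± 14 TPM in SNU2535 and 1.58 ± 0.43 TPM in NCI-H3122, and PIGR, the receptor that carries IgA across epithelia, 21.97 ± 0.45 TPM in SNU2535 and 0.0169 ± 0.029 TPM in NCI-H3122. The 1 member that was at least 2-fold lower was SCGB1A1, the secretoglobin of airway club cells, with 0.266, 0.303 and 0 TPM in SNU2535, against 7.81, 6.78 and 5.05 TPM in NCI-H3122. SFTPC, the surfactant protein specific to type II cells, was listed at 0 in both lines. NCI-H2228 lay between them for NAPSA (37.00 ± 1.4 TPM), SFTPB (7.92 ± 0.87 TPM) and SLC34A2 (173 ± 10 TPM).

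Gut-type products went in both directions. Of the 40 gut and liver products listed, 15 passed the filter on low values. Of those, 5 were at least 2-fold higher and 7 at least 2-fold lower in SNU2535 (median difference -0.50). Relative to all genes this median was -0.67, but 0.30 when 1 TPM in at least 1 library was enough and 0.030 with no filter beyond a value above 0. The trefoil peptide TFF1, secreted with mucus in the stomach, had 2.53, 3.52 and 3.42 TPM in SNU2535, against 351, 337 and 324 TPM in NCI-H3122. The gel-forming intestinal mucin MUC2 had 0.0979, 0.139 and 0.1698 TPM in SNU2535, against 9.896, 8.902 and 9.74 TPM in NCI-H3122. AGR2, an endoplasmic reticulum protein needed for mucin folding, had 130.3, 124 and 130.1 TPM in SNU2535, against 340.2, 315 and 324 TPM in NCI-H3122. Against these, DPP4, a surface peptidase, averaged 169 ± 3.2 TPM in SNU2535 and 0.911 ± 0.21 TPM in NCI-H3122. SERPINA1, the antiprotease that protects lung elastin, averaged 247 ± 2.6 TPM in SNU2535 and 2.02 ± 0.22 TPM in NCI-H3122. Placental alkaline phosphatase ALPP averaged 85.2 ± 5.6 TPM in SNU2535 and 0.0159 ± 0.028 TPM in NCI-H3122, with reads possibly shared with ALPPL2. The carcinoembryonic family split. CEACAM6 had 5329, 5078 and 5489 TPM in SNU2535, against 335, 307 and 328 TPM in NCI-H3122, and CEACAM1 averaged 30.4 ± 2.1 TPM in SNU2535 and 1.09 ± 0.18 TPM in NCI-H3122. CEACAM5, the antigen measured in serum as CEA, had 21.01, 20.2 and 22.2 TPM in SNU2535, against 206, 184 and 201 TPM in NCI-H3122 and was thus lower where the other members were higher.

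Mucins and keratins separated the lines by member. MUC1, the transmembrane mucin of glandular epithelium, had 868, 853 and 791 TPM in SNU2535, against 6.44, 4.68 and 6.14 TPM in NCI-H3122. Among 14 listed mucins, 9 were tested. In SNU2535, 7 of these were higher and 2 lower by at least 2-fold, with a median difference of 2.91. MUC13 averaged 33.6 ± 0.54 TPM in SNU2535 and 0.509 ± 0.0093 TPM in NCI-H3122, and MUC16, the CA-125 antigen, 5.42 ± 0.33 TPM in SNU2535 and 0.372 ± 0.096 TPM in NCI-H3122. In contrast MUC4 averaged 10.9 ± 1.1 TPM in SNU2535 and 33.6 ± 2.2 TPM in NCI-H3122. The simple-epithelial keratins were abundant in both lines. KRT7 averaged 2598 ± 70 TPM in SNU2535 and 1557 ± 17 TPM in NCI-H3122 and KRT19 3184 ± 118 TPM in SNU2535 and 1952 ± 36 TPM in NCI-H3122, each higher in SNU2535. KRT8 averaged 1203 ± 7.4 TPM in SNU2535 and 1869 ± 39 TPM in NCI-H3122 and KRT18 1313 ± 12 TPM in SNU2535 and 2803 ± 50 TPM in NCI-H3122, each lower. Stratified keratins were mixed. KRT13 (SNU2535 22.8 ± 1.1, NCI-H3122 10.1 ± 0.99 TPM) and KRT16 (SNU2535 43.96 ± 1.0, NCI-H3122 17.4 ± 1.1 TPM) were higher. KRT4 (SNU2535 13.3 ± 0.71, NCI-H3122 57.4 ± 3.3 TPM), KRT6B (SNU2535 0.301 ± 0.11, NCI-H3122 4.21 ± 0.62 TPM) and KRT5 (SNU2535 0.0691 ± 0.027, NCI-H3122 1.26 ± 0.16 TPM) were lower in SNU2535. Of the 21 keratins listed, 18 passed the filter on low values. Of those, 2 were at least 2-fold higher and 5 at least 2-fold lower in SNU2535 (median difference 0.43). Of the 8 squamous or basal markers listed, 7 passed the filter on low values. Of those, 1 was at least 2-fold higher and 4 at least 2-fold lower in SNU2535 (median difference -1.08). The squamous markers lower by that much were TP63, SOX2, KRT5 and SERPINB5 (SNU2535 32.8 ± 1.3, NCI-H3122 122 ± 7.0 TPM). The plakophilin PKP1 was higher (SNU2535 6.39 ± 0.20, NCI-H3122 1.86 ± 0.21 TPM). The summed level of the 8 listed squamous genes ran from 155 to 161 TPM in SNU2535 and from 265 to 287 TPM in NCI-H3122. Of the 11 listed lung adenocarcinoma markers, 10 averaged 1 TPM or more in SNU2535 and 7 in NCI-H3122, where NAPSA, SFTPB, SLC34A2 and SFTPC did not.

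**Figure D2:**
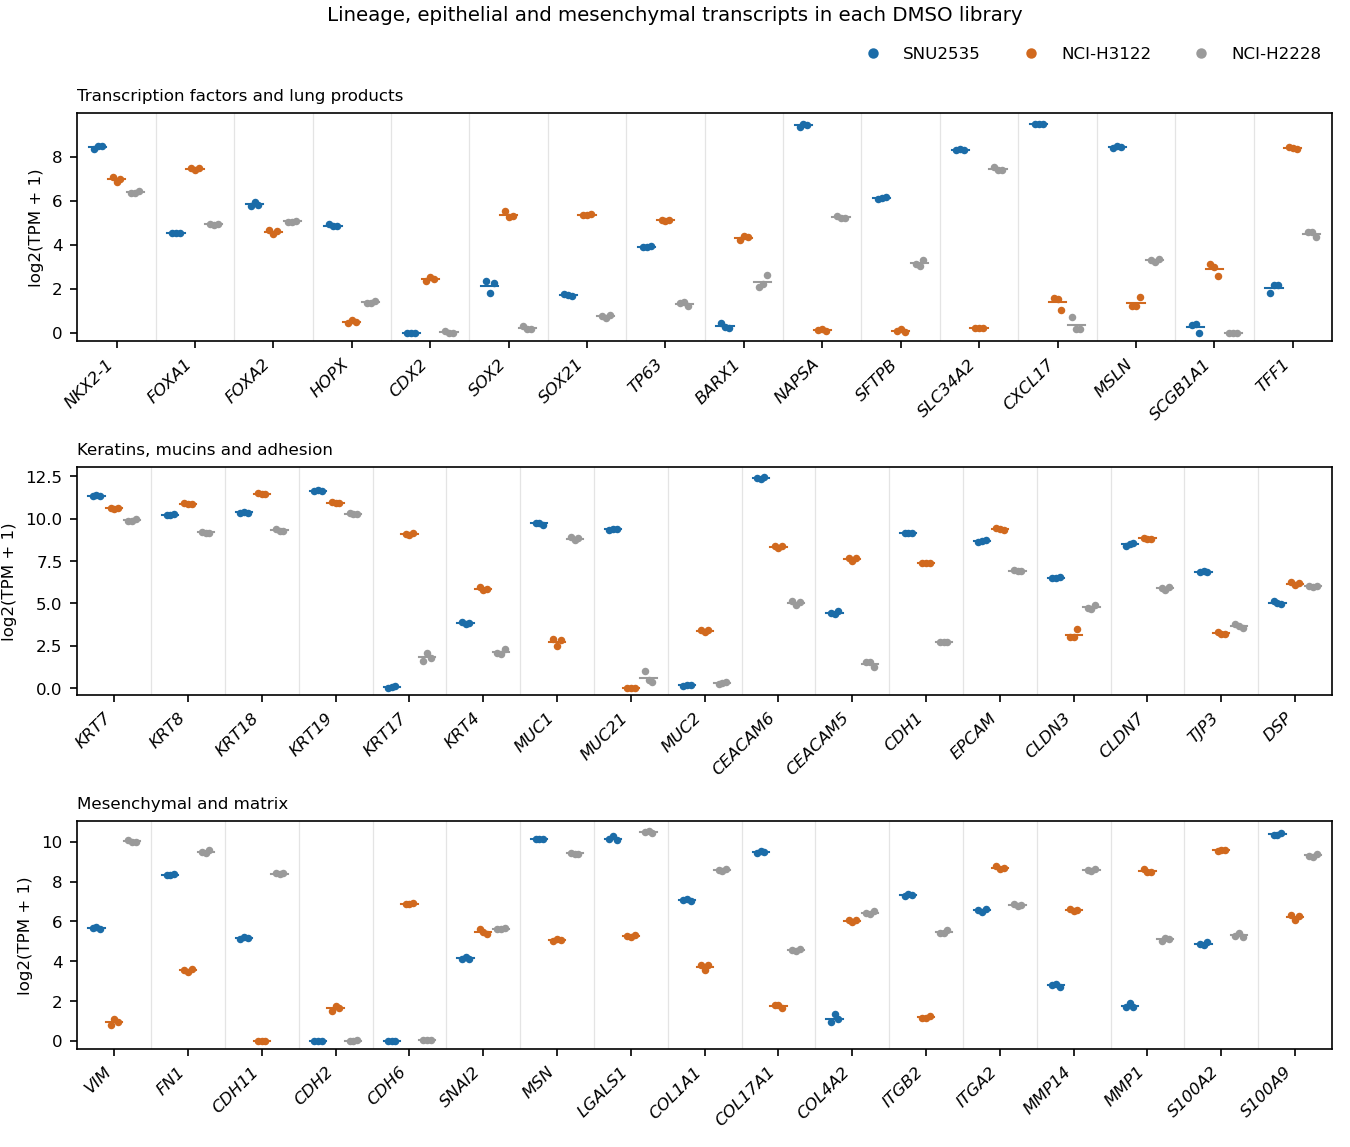
Level of each named gene, as log2(TPM + 1), in the 3 DMSO libraries of SNU2535 (blue), NCI-H3122 (orange) and NCI-H2228 (grey), with a bar at the mean of each line. NAPSA, SFTPB, SLC34A2, MUC21 and CDH11 stand high in SNU2535 and near the floor in NCI-H3122, MUC1 and ITGB2 stand high in SNU2535 and far lower in NCI-H3122, and KRT17, SOX2, CDH6, TFF1 and MMP1 do the reverse.

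SNU2535 had more of several epithelial junction transcripts and also more of several mesenchymal ones. E-cadherin CDH1 (chr16:68737225-68835548, plus strand), the adhesion molecule of adherens junctions, had 573, 563 and 566 TPM in SNU2535, against 168, 165 and 168 TPM in NCI-H3122, a difference of 1.76 (SE 0.024, limma adjusted p = 1.08e-09). Among 41 listed genes of epithelial adhesion and identity, 39 were tested. In SNU2535, 15 of these were higher and 1 lower by at least 2-fold, with a median difference of 0.84. The tight-junction genes CLDN3 (SNU2535 90.5 ± 2.3, NCI-H3122 8.09 ± 1.7 TPM) and TJP3 (SNU2535 116 ± 3.7, NCI-H3122 8.51 ± 0.54 TPM) were higher in SNU2535. So were the splicing factor ESRP1 that sets epithelial isoforms (SNU2535 132 ± 3.3, NCI-H3122 70.8 ± 1.4 TPM) and the membrane protease PRSS8 (SNU2535 159.6 ± 9.9, NCI-H3122 15.7 ± 0.60 TPM). EPCAM (SNU2535 409 ± 11, NCI-H3122 666 ± 21 TPM) and CLDN7 (SNU2535 358 ± 23, NCI-H3122 453 ± 8.2 TPM) were lower. The same held for the desmosomal genes DSP (SNU2535 32.2 ± 2.1, NCI-H3122 71.2 ± 4.4 TPM) and DSC2 (SNU2535 38.9 ± 1.8, NCI-H3122 72.4 ± 1.9 TPM) and the epithelial factors GRHL2 (SNU2535 29.01 ± 2.1, NCI-H3122 41.6 ± 2.0 TPM) and OVOL1 (SNU2535 16.9 ± 0.95, NCI-H3122 32.96 ± 0.45 TPM). DSP was the 1 member lower by at least 2-fold. It lies on chromosome 6, where its 20 neighbours had a median difference of -1.16; the part of position was not tested. The difference of CLDN7 was -0.34, and -0.55 under median-ratio scaling.

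Of the 39 genes of the mesenchymal state listed, 32 passed the filter on low values. Of those, 18 were at least 2-fold higher and 7 at least 2-fold lower in SNU2535 (median difference 1.49). Vimentin VIM, the intermediate filament of mesenchymal cells, had 50.6, 51.7 and 48.3 TPM in SNU2535, against 0.731, 1.16 and 0.922 TPM in NCI-H3122, beside 1036 ± 31 TPM in NCI-H2228. Fibronectin FN1 had 325, 323 and 329 TPM in SNU2535, against 10.7, 10.1 and 11.1 TPM in NCI-H3122. The osteoblast cadherin CDH11 had 33.4, 35.7 and 34.3 TPM in SNU2535, against 0.008300, 0 and 0 TPM in NCI-H3122. The actin linker MSN averaged 1124 ± 11 TPM in SNU2535 and 32.4 ± 1.7 TPM in NCI-H3122 and the galectin LGALS1 1142 ± 79 TPM in SNU2535 and 37.4 ± 0.96 TPM in NCI-H3122. The cadherins of mesenchymal and kidney cells went the other way. N-cadherin CDH2 was listed at 0 in SNU2535 and had 1.88, 2.39 and 2.18 TPM in NCI-H3122, and CDH6 had 0.0125, 0 and 0 TPM in SNU2535, against 117, 118 and 119 TPM in NCI-H3122. The transcriptional repressor SNAI2 averaged 16.7 ± 0.63 TPM in SNU2535 and 43.8 ± 3.5 TPM in NCI-H3122, and ZEB1, which represses CDH1, stayed under 1 TPM in every library of both lines and averaged 13.01 ± 0.28 TPM in NCI-H2228. The list therefore held members at least 2-fold higher and lower, and its name does not give the direction of each.

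Matrix genes and integrins went in both directions. COL17A1, the hemidesmosome collagen that anchors basal epithelial cells, had 701, 750.4 and 705 TPM in SNU2535, against 2.52, 2.52 and 2.13 TPM in NCI-H3122. COL18A1, a basement membrane collagen, averaged 256 ± 16 TPM in SNU2535 and 2.71 ± 0.094 TPM in NCI-H3122. The fibrillar collagen COL1A1 averaged 135 ± 4.7 TPM in SNU2535 and 12.3 ± 1.3 TPM in NCI-H3122. The basement membrane chains COL4A2 (SNU2535 1.19 ± 0.31, NCI-H3122 64.9 ± 2.2 TPM) and COL4A1 (SNU2535 6.94 ± 0.47, NCI-H3122 23.6 ± 0.15 TPM) and the anchoring fibril collagen COL7A1 (SNU2535 0.394 ± 0.12, NCI-H3122 6.87 ± 0.25 TPM) were lower in SNU2535. Among integrins, ITGB2, the leukocyte beta chain, had 156, 163 and 158 TPM in SNU2535, against 1.26, 1.25 and 1.399 TPM in NCI-H3122. The epithelial chains ITGB6 (SNU2535 67.7 ± 3.9, NCI-H3122 31.3 ± 0.46 TPM) and ITGB4 (SNU2535 984 ± 49, NCI-H3122 591 ± 18 TPM) were higher as well. The collagen receptor chain ITGA2 (SNU2535 93.2 ± 4.2, NCI-H3122 414 ± 17 TPM) and ITGB5 (SNU2535 104 ± 2.1, NCI-H3122 266 ± 2.1 TPM) were lower. Of the 21 integrins listed, 16 passed the filter on low values. Of those, 4 were at least 2-fold higher and 3 at least 2-fold lower in SNU2535 (median difference 0.38), beside 23.1% and 11.5% of all tested genes. Among 31 listed laminins and collagens, 21 were tested. In SNU2535, 11 of these was higher and 4 lower by at least 2-fold, with a median difference of 1.15. Collagenase MMP1 had 2.28, 2.69 and 2.25 TPM in SNU2535, against 389, 353 and 359.7 TPM in NCI-H3122, and membrane-type MMP14 (SNU2535 5.97 ± 0.41, NCI-H3122 93.2 ± 2.3 TPM) and ADAM19 (SNU2535 0.9748 ± 0.093, NCI-H3122 41.1 ± 2.0 TPM) were lower in SNU2535 too. MMP24 (SNU2535 45.9 ± 2.2, NCI-H3122 0.221 ± 0.17 TPM) and kallikrein KLK10 (SNU2535 59.8 ± 4.3, NCI-H3122 0.682 ± 0.068 TPM) were higher. Of the 59 genes of proteases, plasminogen and coagulation listed, 49 passed the filter on low values. Of those, 26 were at least 2-fold higher and 10 at least 2-fold lower in SNU2535 (median difference 1.47).

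Markers of other cell types were checked beside these genes, since ITGB2, COL1A1 and the cadherins are also expressed outside epithelium. The leukocyte gene PTPRC averaged 0.0276 TPM in SNU2535 and 0.00883 TPM in NCI-H3122. The 7 listed leukocyte genes summed to between 168 and 178 TPM in SNU2535 and between 4.75 and 6.08 TPM in NCI-H3122. In SNU2535 this was mostly ITGB2, and CSF1R was also higher (SNU2535 3.09 ± 0.27, NCI-H3122 0.09903 ± 0.040 TPM). All 4 leukocyte genes that were tested were called higher in SNU2535, 3 of them by at least 2-fold. The part of other cells in these values was not tested. The fibroblast list summed to between 137 and 147 TPM in SNU2535 and between 218 and 223 TPM in NCI-H3122. It rested on COL1A1 in SNU2535 and on LUM in NCI-H3122 (SNU2535 5.68 ± 0.052, NCI-H3122 208 ± 3.7 TPM), while DCN was listed at 0 and COL3A1 averaged 0.0171 TPM in SNU2535 and 0 TPM in NCI-H3122. Endothelial genes summed to between 13.3 and 13.8 TPM in SNU2535 and between 2.89 and 3.49 TPM in NCI-H3122. PECAM1 (SNU2535 6.43 ± 0.27, NCI-H3122 0.07197 ± 0.064 TPM) and CDH5 (SNU2535 4.72 ± 0.082, NCI-H3122 1.504 ± 0.14 TPM) were the members above 1 TPM on average in SNU2535. Of 14 neuroendocrine genes, 3 were tested. NCAM1 (SNU2535 1.79 ± 0.18, NCI-H3122 0.002900 ± 0.0050 TPM) and UCHL1 (SNU2535 46.7 ± 1.8, NCI-H3122 4.33 ± 0.080 TPM) were higher and CHGB (SNU2535 0.00987 ± 0.017, NCI-H3122 2.13 ± 0.20 TPM) was lower in SNU2535.

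S100 calcium-binding genes and annexins were split by member. Of the 27 S100 genes and annexins listed, 24 passed the filter on low values. Of those, 9 were at least 2-fold higher and 12 at least 2-fold lower in SNU2535 (median difference -0.54). S100A2 had 27.9, 27.3 and 30.1 TPM in SNU2535, against 749, 762 and 755 TPM in NCI-H3122. S100P had 12.7, 13.7 and 11.03 TPM in SNU2535, against 259, 248 and 253 TPM in NCI-H3122. S100A9, a subunit of calprotectin, went the other way with 1280.3, 1275 and 1394 TPM in SNU2535, against 78.8, 66.4 and 76.8 TPM in NCI-H3122. Annexins ANXA5 (SNU2535 302 ± 2.8, NCI-H3122 53.1 ± 1.9 TPM) and ANXA3 (SNU2535 74.9 ± 5.4, NCI-H3122 7.597 ± 0.45 TPM) were higher in SNU2535 and ANXA8 (SNU2535 1.49 ± 0.21, NCI-H3122 58.6 ± 0.88 TPM) lower. The 20 neighbours of S100A2 on chromosome 1 had a median difference of -1.55, and those of S100A9 -0.17; the part of position was not tested.

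Receptor tyrosine kinases differed by member and not as a class. Among 40 listed receptor tyrosine kinases, 22 were tested. In SNU2535, 5 of these were higher and 4 lower by at least 2-fold, with a median difference of 0.19. Over all tested genes 23.1% were higher and 11.5% lower by that much. The list's median of 0.19 lay close to the 0.17 of all genes, above it without scaling and below it under quantile normalization. With a filter of 5 TPM in at least 3 libraries its difference to the median of all genes was -0.37. ERBB2, the HER2 receptor, had 104, 111 and 109.9 TPM in SNU2535, against 21.4, 19.7 and 20.8 TPM in NCI-H3122, a difference of 2.34 (SE 0.045, limma adjusted p = 5.21e-09). IGF1R, the receptor for IGF1 and IGF2, had 8.31, 8.08 and 8.399 TPM in SNU2535, against 39.6, 36.4 and 37.3 TPM in NCI-H3122, a difference of -2.07 (SE 0.049, limma adjusted p = 1.39e-08). Among FGF receptors, FGFR1 (SNU2535 3.87 ± 0.072, NCI-H3122 0.369 ± 0.063 TPM) was higher in SNU2535. FGFR3 (SNU2535 1.395 ± 0.21, NCI-H3122 14.6 ± 0.76 TPM) and FGFR4 (SNU2535 1.36 ± 0.18, NCI-H3122 9.73 ± 0.85 TPM) were lower. MET, a receptor whose amplification is a known route to ALK inhibitor resistance, averaged 533 ± 17 TPM in SNU2535 and 275 ± 7.8 TPM in NCI-H3122. EGFR averaged 89.8 ± 0.98 TPM in SNU2535 and 131 ± 2.0 TPM in NCI-H3122 and ERBB3 60.2 ± 1.1 TPM in SNU2535 and 38.6 ± 1.4 TPM in NCI-H3122, both differing by less than 2-fold. AXL was low in both (SNU2535 2.45 ± 0.25, NCI-H3122 6.77 ± 0.38 TPM) beside 293 ± 6.2 TPM in NCI-H2228, and KIT was under 1 TPM in every library. Among MET, EGFR, ERBB2, ERBB3 and IGF1R alone, the order by level in SNU2535 was MET, ERBB2, EGFR, ERBB3, IGF1R, and in NCI-H3122 MET, EGFR, ERBB3, IGF1R, ERBB2, where ERBB3 and IGF1R overlapped.

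Eph receptors and receptor ligands lay mostly higher in SNU2535. Of the 22 Eph receptors and ephrins listed, 18 passed the filter on low values. Of those, 10 were at least 2-fold higher and 2 at least 2-fold lower in SNU2535 (median difference 1.26). EPHB4 had 52.7, 56.4 and 53.4 TPM in SNU2535, against 8.29, 7.11 and 8.15 TPM in NCI-H3122. EPHB2 (SNU2535 27.4 ± 0.65, NCI-H3122 4.12 ± 0.041 TPM) and the ephrin ligand EFNA4 (SNU2535 24.2 ± 0.91, NCI-H3122 3.32 ± 0.58 TPM) were also higher, while EPHB6, which lacks kinase activity, had 0.349, 0.729 and 0.631 TPM in SNU2535, against 12.8, 11.4 and 14.3 TPM in NCI-H3122. Of the 39 ligands of receptor tyrosine kinases listed, 25 passed the filter on low values. Of those, 13 were at least 2-fold higher and 6 at least 2-fold lower in SNU2535 (median difference 1.13). KITLG, the ligand of KIT, had 368, 348 and 376 TPM in SNU2535, against 22.8, 23.2 and 22.8 TPM in NCI-H3122. The EGFR ligands EGF (SNU2535 13.2 ± 0.28, NCI-H3122 0.306 ± 0.053 TPM) and AREG (SNU2535 297 ± 7.7, NCI-H3122 105 ± 4.4 TPM) were higher as well. Neuregulin NRG1, which binds ERBB3, averaged 27.8 ± 0.47 TPM in SNU2535 and 1.92 ± 0.22 TPM in NCI-H3122, and GAS6, the ligand of AXL, 34.2 ± 2.7 TPM in SNU2535 and 1.402 ± 0.047 TPM in NCI-H3122. The exceptions besides IGF2 included ARTN, a ligand of the RET receptor complex (SNU2535 0.948 ± 0.34, NCI-H3122 9.400 ± 0.13 TPM), and ANGPTL4 (SNU2535 0.156 ± 0.10, NCI-H3122 2.92 ± 0.61 TPM). IGF2 and its receptor IGF1R were thus both higher in NCI-H3122, and NRG1 and ERBB3 both higher in SNU2535. Other pairs were opposed. EGF, AREG and GAS6 were higher in SNU2535, while EGFR and AXL had the higher means in NCI-H3122.

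Among cytokine receptors and nuclear receptors more members were higher than lower in SNU2535. The same held over all tested genes, with 23.1% higher and 11.5% lower by at least 2-fold. Among 54 listed cytokine and TGF-beta family receptors, 49 were tested. In SNU2535, 21 of these were higher and 5 lower by at least 2-fold, with a median difference of 0.66. Under median-ratio scaling and quantile normalization alike, 16 of the 21 and all 5 of the lower ones kept such a difference. IL20RB had 104, 102 and 102 TPM in SNU2535, against 0.538, 0.414 and 0.453 TPM in NCI-H3122, and IL7R averaged 29.1 ± 0.49 TPM in SNU2535 and 1.39 ± 0.24 TPM in NCI-H3122. The interferon-gamma receptor chain IFNGR1 was lower (59.1, 60.7 and 60.2 TPM in SNU2535, against 175, 171 and 175 TPM in NCI-H3122), as was the activin receptor ACVR2B (SNU2535 0.709 ± 0.14, NCI-H3122 3.44 ± 0.12 TPM). IFNGR1 lies on chromosome 6, and its 20 neighbours had a median difference of -1.16; the part of position was not tested. Of the 33 nuclear receptors listed, 19 passed the filter on low values. Of those, 8 were at least 2-fold higher and 0 at least 2-fold lower in SNU2535 (median difference 0.54). Under both other scalings 4 of the 8 stayed at least 2-fold higher. The vitamin D receptor VDR averaged 152 ± 3.8 TPM in SNU2535 and 59.1 ± 2.7 TPM in NCI-H3122. The adipogenic regulator PPARG was higher too (SNU2535 23.7 ± 1.4, NCI-H3122 10.9 ± 0.32 TPM).

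**Figure D3:**
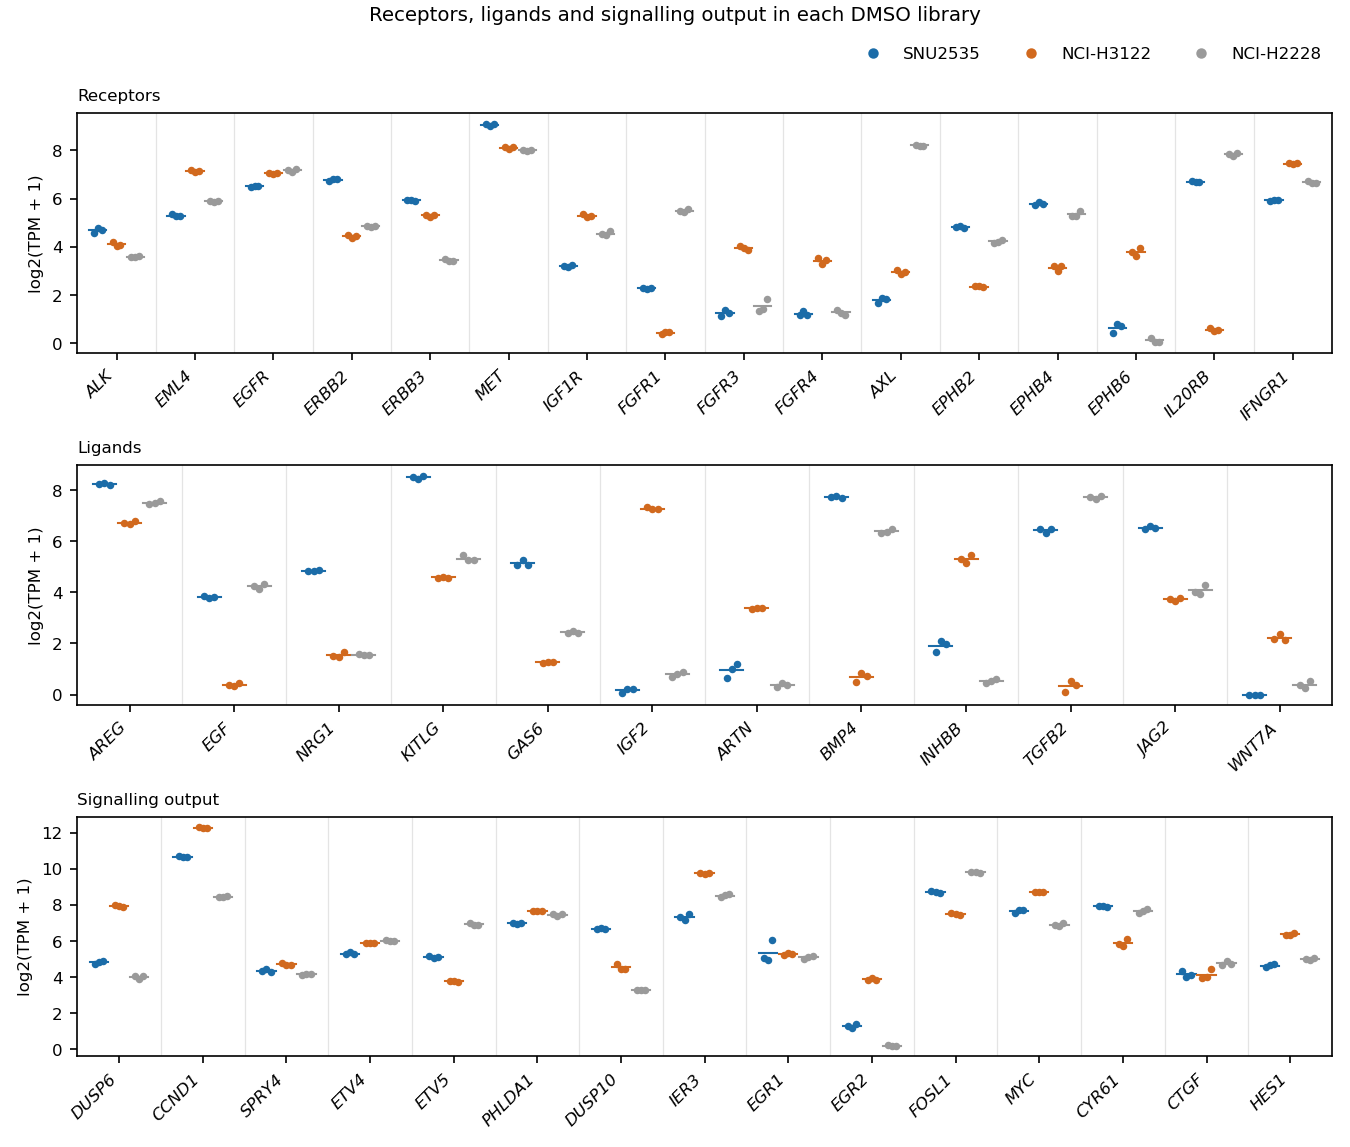
Level of receptors, ligands and transcripts that report signalling, as log2(TPM + 1), in the 3 DMSO libraries of SNU2535 (blue), NCI-H3122 (orange) and NCI-H2228 (grey), with a bar at the mean of each line. ERBB2, KITLG and BMP4 are higher in SNU2535, and EML4, IGF1R, IGF2, DUSP6 and CCND1 in NCI-H3122, while EGR1 overlaps.

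Transcripts that ERK signalling drives did not move as 1 block between the lines. Of the 10 genes of MAPK pathway output listed, all 10 passed the filter on low values. Of those, 1 was at least 2-fold higher and 2 at least 2-fold lower in SNU2535 (median difference -0.41). DUSP6 (chr12:89347232-89353271, minus strand), the phosphatase that inactivates ERK and is induced by it, had 25.2, 28.1 and 28.3 TPM in SNU2535, against 250.4, 242 and 237 TPM in NCI-H3122, a difference of -3.12 (SE 0.050, limma adjusted p = 2.46e-09). At any size of difference, 3 of the 10 were called higher and 6 lower, beside 47.6% and 33.0% of all tested genes. Cyclin CCND1 (chr11:69641087-69654474, plus strand), which starts the passage through G1, was abundant in both lines, with 1657, 1595 and 1605 TPM in SNU2535, against 5021, 4882 and 4899 TPM in NCI-H3122, and its 20 neighbours had a median of -0.78. The transcription factors ETV4 and ETV5, a pair that ERK controls together in many cells, were opposed. ETV4 averaged 38.5 ± 1.9 TPM in SNU2535 and 58.5 ± 0.59 TPM in NCI-H3122, and ETV5 33.6 ± 0.91 TPM in SNU2535 and 12.6 ± 0.25 TPM in NCI-H3122. PHLDA1 (SNU2535 125 ± 2.8, NCI-H3122 204 ± 1.9 TPM) and SPRY4 (SNU2535 19.5 ± 0.97, NCI-H3122 25.2 ± 0.81 TPM) were lower by less than 2-fold. SPRY4 differed by -0.36, or by -0.59 under quantile normalization. The ephrin receptor EPHA4 was higher (SNU2535 17.8 ± 0.51, NCI-H3122 10.3 ± 0.53 TPM, difference 0.73, or 0.44 under quantile normalization). Its relative EPHA2 (SNU2535 292 ± 17, NCI-H3122 249.9 ± 9.3 TPM, difference 0.22) was not called under median-ratio scaling (0.019).

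Feedback regulators and immediate early genes were as divided. Among 22 listed ERK feedback regulators, 20 were tested. In SNU2535, 6 of these were higher and 5 lower by at least 2-fold, with a median difference of 0.018. IER3 had 158, 145 and 178 TPM in SNU2535, against 858, 838 and 873 TPM in NCI-H3122. SPRED2, an inhibitor of RAS activation, had 32.2, 33.8 and 33.9 TPM in SNU2535, against 117, 108 and 112 TPM in NCI-H3122, and both were lower in SNU2535. The stress kinase phosphatase DUSP10 had 100.4, 103 and 99.3 TPM in SNU2535, against 25.2, 21.1 and 20.98 TPM in NCI-H3122, and RASSF5 averaged 30.9 ± 1.2 TPM in SNU2535 and 5.01 ± 0.69 TPM in NCI-H3122, both higher. Of the 31 immediate early genes listed, 28 passed the filter on low values. Of those, 8 were at least 2-fold higher and 6 at least 2-fold lower in SNU2535 (median difference 0.38). EGR2 (SNU2535 1.43 ± 0.18, NCI-H3122 13.8 ± 0.73 TPM) and FOSB (SNU2535 0.905 ± 0.28, NCI-H3122 5.19 ± 0.70 TPM) were lower in SNU2535. In contrast KLF2 (SNU2535 67.95 ± 4.3, NCI-H3122 6.99 ± 1.2 TPM), JUND (SNU2535 510.2 ± 47, NCI-H3122 126 ± 8.0 TPM) and the AP-1 factor FOSL1 (SNU2535 420.0 ± 16, NCI-H3122 181 ± 4.3 TPM) were higher. EGR1 itself had 31.8, 29.4 and 65.2 TPM in SNU2535, against 37.01, 39.7 and 37.4 TPM in NCI-H3122, and the lines overlapped through SNU2535 replicate 3 (difference 0.050, limma adjusted p = 0.882). Without that library EGR1 was called lower in SNU2535 (-0.31, limma adjusted p = 0.0023). MYC averaged 203 ± 13 TPM in SNU2535 and 421 ± 5.4 TPM in NCI-H3122, lower in SNU2535.

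Other pathway lists each held members at least 2-fold higher and members at least 2-fold lower in SNU2535. Over all tested genes the shares were 23.1% and 11.5%. Of the 32 PI3K-AKT pathway genes and FOXO targets listed, 30 passed the filter on low values. Of those, 10 were at least 2-fold higher and 2 at least 2-fold lower in SNU2535 (median difference 0.62). The regulatory subunit PIK3R3 averaged 36.4 ± 1.4 TPM in SNU2535 and 5.85 ± 0.63 TPM in NCI-H3122, and the ubiquitin ligase FBXO32, a FOXO target, 65.03 ± 1.5 TPM in SNU2535 and 8.61 ± 0.83 TPM in NCI-H3122. FOXO3 (SNU2535 24.02 ± 0.52, NCI-H3122 59.8 ± 2.5 TPM) and TXNIP (SNU2535 238 ± 1.6, NCI-H3122 515 ± 16 TPM), which restrains glucose uptake, were lower. Among 28 listed YAP and TEAD pathway genes, all 28 were tested. In SNU2535, 14 of these were higher and 7 lower by at least 2-fold, with a median difference of 0.96. The coactivators YAP1 (SNU2535 169.5 ± 6.1, NCI-H3122 68.6 ± 2.5 TPM) and WWTR1 (SNU2535 85.9 ± 1.9, NCI-H3122 30.9 ± 1.0 TPM) were higher in SNU2535. Their target CYR61 had 243, 244 and 240.0 TPM in SNU2535, against 56.7, 52.3 and 68.1 TPM in NCI-H3122, and ANKRD1 was higher too (SNU2535 10.4 ± 1.1, NCI-H3122 0.0964 ± 0.084 TPM). CTGF, a target of the same factors, had 18.96, 15.3 and 16.7 TPM in SNU2535, against 14.4, 14.9 and 20.8 TPM in NCI-H3122 and did not pass (difference 0.036, limma adjusted p = 0.834). It was -0.06 without NCI-H3122 replicate 1, -0.03 without NCI-H3122 replicate 2 and -0.04 without SNU2535 replicate 1, and below 0 under the other scalings. TEAD2 (SNU2535 0.198 ± 0.14, NCI-H3122 5.29 ± 0.56 TPM), VGLL3 (SNU2535 1.31 ± 0.31, NCI-H3122 12.2 ± 0.72 TPM) and NT5E (SNU2535 238 ± 3.2, NCI-H3122 1032 ± 20 TPM) were lower.

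Of the 53 Wnt pathway genes listed, 34 passed the filter on low values. Of those, 9 were at least 2-fold higher and 6 at least 2-fold lower in SNU2535 (median difference 0.34). The stem cell factor ASCL2 (SNU2535 28.03 ± 2.0, NCI-H3122 1.43 ± 0.26 TPM) and the Wnt inhibitor APCDD1 (SNU2535 8.31 ± 0.60, NCI-H3122 0.485 ± 0.16 TPM) were higher in SNU2535. The transcription factor TCF7 (SNU2535 0.337 ± 0.097, NCI-H3122 12.1 ± 0.68 TPM), the receptor FZD10 (SNU2535 listed at 0, NCI-H3122 9.81 ± 1.0 TPM) and the ligand WNT7A (SNU2535 listed at 0, NCI-H3122 3.69 ± 0.40 TPM) were lower. AXIN2 and LGR5, which report active Wnt signalling in gut, stayed below 1 TPM in every library and were not tested. Of the 30 Notch pathway genes listed, 22 passed the filter on low values. Of those, 7 were at least 2-fold higher and 6 at least 2-fold lower in SNU2535 (median difference 0.41). The Notch ligand JAG2 (SNU2535 91.7 ± 4.1, NCI-H3122 12.2 ± 0.41 TPM) and the receptor NOTCH2 (SNU2535 84.6 ± 1.9, NCI-H3122 12.7 ± 0.42 TPM) were higher in SNU2535. Among targets, HES1 (SNU2535 23.96 ± 1.2, NCI-H3122 82.2 ± 4.2 TPM) and HEY1 (SNU2535 0.606 ± 0.22, NCI-H3122 7.59 ± 0.79 TPM) were lower and HEYL (SNU2535 7.37 ± 0.64, NCI-H3122 0.917 ± 0.21 TPM) was higher. Among 41 listed TGF-beta and BMP pathway genes, 38 were tested. In SNU2535, 15 of these were higher and 6 lower by at least 2-fold, with a median difference of 0.59. The ligand BMP4 had 209, 219 and 206 TPM in SNU2535, against 0.396, 0.807 and 0.635 TPM in NCI-H3122. The ligand TGFB2 had 87.9, 78.99 and 87.8 TPM in SNU2535, against 0.0861, 0.426 and 0.299 TPM in NCI-H3122. The activin subunit INHBB was lower (SNU2535 2.79 ± 0.55, NCI-H3122 38.5 ± 4.3 TPM).

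Interferon-stimulated genes, which cells switch on when interferon is sensed, were mostly higher in SNU2535. Of the 50 interferon-stimulated genes listed, 47 passed the filter on low values. Of those, 40 were at least 2-fold higher and 0 at least 2-fold lower in SNU2535 (median difference 2.46). IFITM3, a membrane protein that blocks viral entry, had 902, 929.9 and 928 TPM in SNU2535, against 4.28, 2.39 and 4.15 TPM in NCI-H3122. IFI27 had 72.5, 84.6 and 73.9 TPM in SNU2535, against 0.0802, 0.0353 and 0.101 TPM in NCI-H3122. ISG15, a ubiquitin-like modifier, averaged 71.6 ± 4.8 TPM in SNU2535 and 59.2 ± 2.1 TPM in NCI-H3122; its difference of 0.27 was not called under median-ratio scaling (0.067) or quantile normalization (0.092). In NCI-H2228 IFITM3 averaged 1061 ± 29 TPM.

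Antigen presentation genes followed the same direction. Of the 30 antigen presentation genes listed, 28 passed the filter on low values. Of those, 24 were at least 2-fold higher and 1 at least 2-fold lower in SNU2535 (median difference 3.11). B2M (chr15:44711487-44718877, plus strand), the light chain that every class I molecule needs to reach the surface, had 879, 903 and 929.9 TPM in SNU2535, against 36.1, 32.98 and 32.6 TPM in NCI-H3122, a difference of 4.70 (SE 0.045, limma adjusted p = 2.93e-10). HLA-B had 906, 1010.3 and 905 TPM in SNU2535, against 16.5, 14.5 and 14.5 TPM in NCI-H3122, and the peptide transporter TAP1 23.1, 27.7 and 26.8 TPM in SNU2535, against 1.11, 1.12 and 1.31 TPM in NCI-H3122. The class II invariant chain CD74 had 222, 219 and 219.9 TPM in SNU2535, against 0, 0 and 0.0879 TPM in NCI-H3122, and HLA-DRA was listed at 0 in NCI-H3122 and had 84.3, 85.5 and 81.2 TPM in SNU2535. The 1 member that was at least 2-fold lower was HLA-DQB1 (SNU2535 0.478 ± 0.013, NCI-H3122 6.04 ± 0.71 TPM). HLA genes are polymorphic, and reads from alleles unlike the reference may have been lost, so their levels are uncertain. NCI-H2228 held more class II transcript than either line, with 1486 ± 50 TPM of CD74 and 806 ± 28 TPM of HLA-DRA. Checkpoint ligands were mixed. LGALS9 (SNU2535 74.4 ± 3.6, NCI-H3122 0.459 ± 0.16 TPM) and TNFSF9 (SNU2535 222 ± 5.5, NCI-H3122 2.29 ± 0.42 TPM) were higher. PD-L1 (CD274) averaged 26.6 ± 1.6 TPM in SNU2535 and 17.4 ± 0.85 TPM in NCI-H3122 (difference 0.58, or 0.35 under quantile normalization). The adenosine-producing enzyme NT5E and the NKG2D ligand ULBP2 (SNU2535 14.3 ± 0.95, NCI-H3122 38.2 ± 1.4 TPM) were lower. Among 27 listed checkpoint and stress ligands, 20 were tested. In SNU2535, 9 of these were higher and 3 lower by at least 2-fold, with a median difference of 0.75.

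Interferon acts through a promoter element, the interferon-stimulated response element. Its core GAAANNGAAA was searched on both strands in the RefSeq promoter table (build GRCh38.p14, 250 bases before to 50 after each start). It occurred in 21 of the 34 interferon-stimulated genes that the table held (61.8%), in 7 of 21 antigen presentation genes (33.3%), in 2.73% of the 10343 tested genes with a promoter there and in 3.65% of all 27305 promoters. Promoters are shown around the matches (capitals, with 30 bases on either side) for genes that were high in SNU2535 and near 0 or much lower in NCI-H3122. The IFITM3 stretch stops at the start of the gene, 25 bases after its last match. In HLA-F the match reads on the opposite strand. A match describes letters and not a bound site. The stretches lie at chr19:17405715-17405790 for BST2 (minus strand), chr11:320861-320942 for IFITM3 (minus strand), chr15:44711343-44711418 for B2M (plus strand) and chr6:29723248-29723317 for HLA-F (plus strand), each written 5′ to 3′ on the strand of its gene.
BST2: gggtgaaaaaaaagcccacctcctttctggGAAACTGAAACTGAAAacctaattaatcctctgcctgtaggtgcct
IFITM3: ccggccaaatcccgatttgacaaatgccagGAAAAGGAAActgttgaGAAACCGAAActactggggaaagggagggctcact
B2M: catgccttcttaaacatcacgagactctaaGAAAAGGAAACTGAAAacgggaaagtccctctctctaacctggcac
HLA-F: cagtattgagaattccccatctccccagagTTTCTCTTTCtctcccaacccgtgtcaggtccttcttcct

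ISG15, with a difference of 0.27, also holds 2 matches in this window. NF-kB targets and complement genes were the next innate groups. Of the 45 NF-kB targets, chemokines and cytokines listed, 30 passed the filter on low values. Of those, 25 were at least 2-fold higher and 2 at least 2-fold lower in SNU2535 (median difference 1.99). The adhesion molecule ICAM1 had 252, 275 and 249.7 TPM in SNU2535, against 2.45, 2.09 and 2.64 TPM in NCI-H3122. Lipocalin LCN2, which withholds iron from bacteria, had 752, 731 and 740.2 TPM in SNU2535, against 13.1, 10.98 and 11.1 TPM in NCI-H3122. The cytokine IL32 had 53.3, 63.3 and 53.6 TPM in SNU2535, against 0.173, 0.137 and 0.218 TPM in NCI-H3122. The neutrophil attractant CXCL8 averaged 21.7 ± 1.6 TPM in SNU2535 and 3.83 ± 0.34 TPM in NCI-H3122. The inhibitor NFKBIA, itself a target, was lower (SNU2535 147 ± 8.7, NCI-H3122 333 ± 3.7 TPM) and so was IL11 (SNU2535 0.753 ± 0.086, NCI-H3122 3.83 ± 0.71 TPM). NFKBIA lies near NKX2-1, and its 20 neighbours had a median of -2.18, with the part of position not tested. Of the 23 complement and humoral innate genes listed, 20 passed the filter on low values. Of those, 16 were at least 2-fold higher and 0 at least 2-fold lower in SNU2535 (median difference 2.01). Complement factor C3 had 52.4, 53.2 and 49.96 TPM in SNU2535, against 0.0666, 0.0176 and 0.0336 TPM in NCI-H3122. CFI, the protease that inactivates C3b, was listed at 0 in NCI-H3122 and had 192, 198 and 203 TPM in SNU2535.

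**Figure D4:**
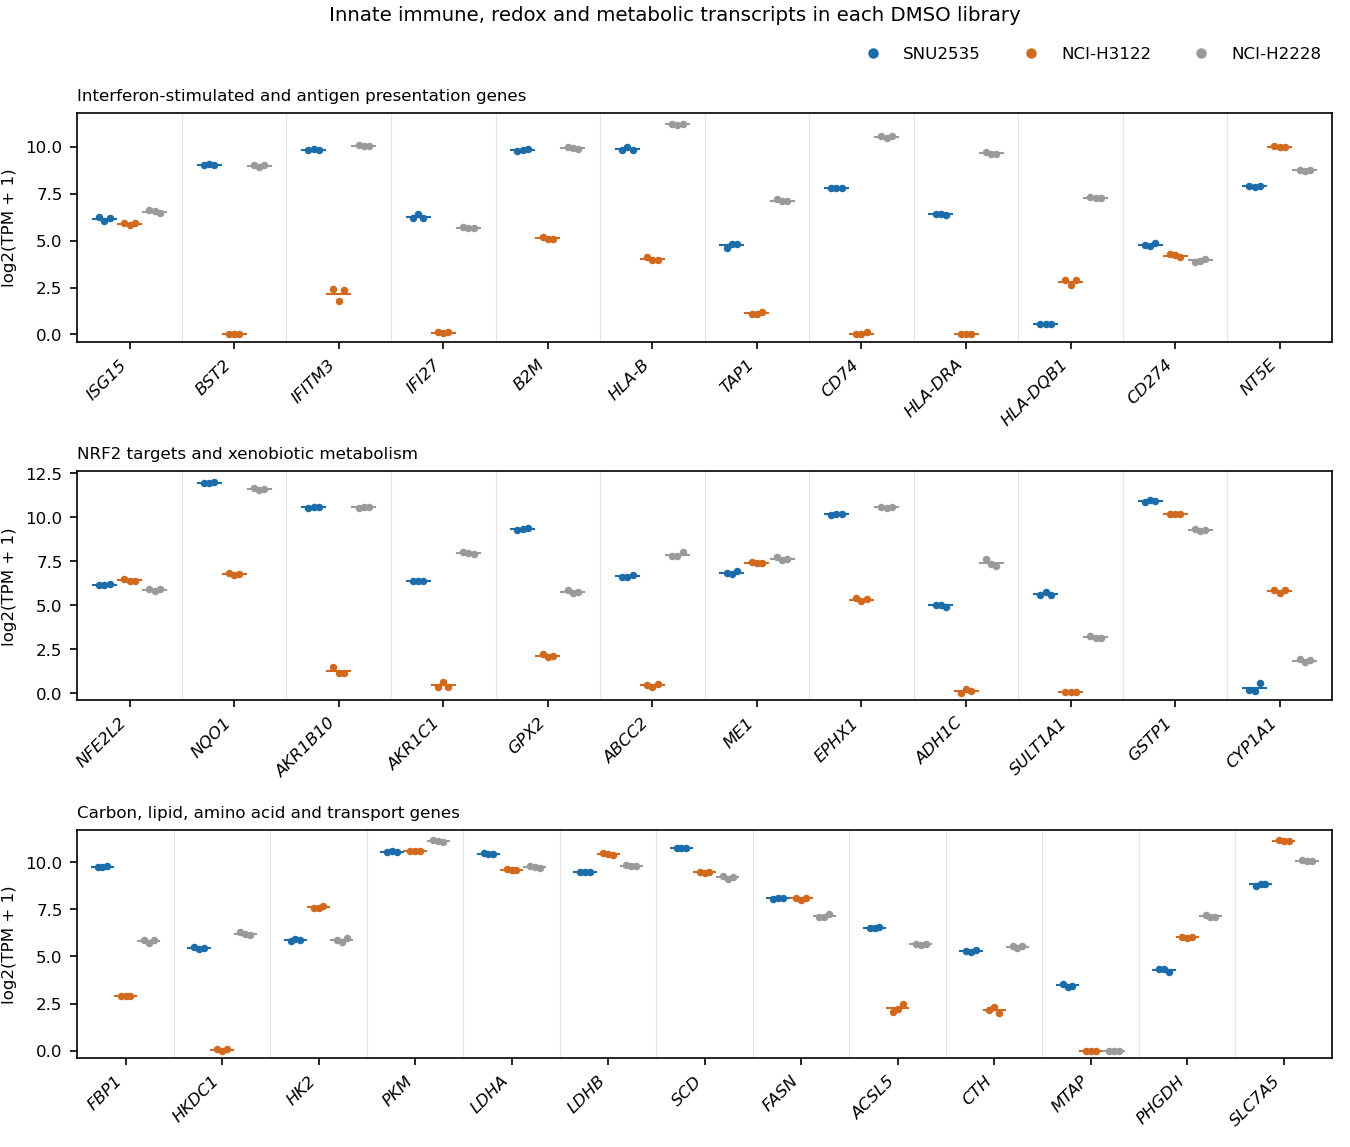
Level of innate immune, redox and metabolic transcripts, as log2(TPM + 1), in the 3 DMSO libraries of SNU2535 (blue), NCI-H3122 (orange) and NCI-H2228 (grey), with a bar at the mean of each line. BST2, CD74, HLA-DRA, AKR1B10, ABCC2, HKDC1 and MTAP are at or near 0 in NCI-H3122, CYP1A1 is near 0 in SNU2535, and NFE2L2, PKM and FASN lie close together.

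Targets of NRF2, the factor that KEAP1 degrades until oxidants or electrophiles release it, were mostly higher in SNU2535. Among 37 listed pentose phosphate genes and NRF2 targets, 36 were tested. In SNU2535, 27 of these were higher and 1 lower by at least 2-fold, with a median difference of 2.63. NQO1 (chr16:69706996-69726951, minus strand), a quinone reductase used as the standard readout of NRF2, had 3901, 4003 and 4144 TPM in SNU2535, against 113, 104 and 111 TPM in NCI-H3122, a difference of 5.19 (SE 0.039, limma adjusted p = 1.22e-10). GPX2, a glutathione peroxidase of epithelia, had 628, 656 and 677 TPM in SNU2535, against 3.700, 3.12 and 3.27 TPM in NCI-H3122. The drug exporter ABCC2 had 95.6, 98.3 and 104 TPM in SNU2535, against 0.392, 0.282 and 0.426 TPM in NCI-H3122. AKR1C1 averaged 82.3 ± 1.1 TPM in SNU2535 and 0.356 ± 0.15 TPM in NCI-H3122, though it shares sequence with AKR1C2 and AKR1C3. The transcript of NRF2 itself, NFE2L2, was lower (SNU2535 70.6 ± 1.8, NCI-H3122 85.2 ± 4.3 TPM, difference -0.27, or -0.47 under median-ratio scaling). ME1 (SNU2535 115 ± 6.9, NCI-H3122 168 ± 2.9 TPM) and RPIA (SNU2535 26.4 ± 1.0, NCI-H3122 119.5 ± 5.9 TPM) were also lower, RPIA by more than 2-fold. NCI-H2228 averaged 3109 ± 98 TPM of NQO1 and 53.4 ± 3.6 TPM of GPX2.

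NRF2 acts through the antioxidant response element, whose core TGACNNNGC was searched in the same promoter windows on both strands. It occurred in 8 of the 26 members of the NRF2 list that the table held (30.8%), in 15.1% of tested genes with a promoter there and in 13.6% of all promoters. Of those 8 genes, 5 were at least 2-fold higher in SNU2535, and ME1 was among the rest. Of all 36 tested members of the list, with or without a match, 27 were higher by that much. The matches of GPX2 at chr14:64942829-64942897 and of CYP4F11, a fatty acid hydroxylase, at chr19:15934985-15935053 (both minus strand, GRCh38.p14) are shown because these were among the widest differences of the list. In each the core reads on the strand opposite to the gene, so the capitals hold its reverse complement.
GPX2: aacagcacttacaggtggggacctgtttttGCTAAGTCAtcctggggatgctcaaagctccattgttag
CYP4F11: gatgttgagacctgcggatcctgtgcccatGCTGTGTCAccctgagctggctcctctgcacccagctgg

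Genes that handle drugs and retinoids were more often higher than lower in SNU2535. Of the 51 xenobiotic and retinoid genes listed, 36 passed the filter on low values. Of those, 21 were at least 2-fold higher and 5 at least 2-fold lower in SNU2535 (median difference 1.29). Epoxide hydrolase EPHX1 had 1135, 1163 and 1159 TPM in SNU2535, against 40.9, 36.9 and 39.6 TPM in NCI-H3122. Alcohol dehydrogenase ADH1C (SNU2535 30.8 ± 1.4, NCI-H3122 0.0775 ± 0.079 TPM) and the sulfotransferase SULT1A1 (SNU2535 48.5 ± 3.1, NCI-H3122 0.0485 ± 0.015 TPM) were higher too. CYP1A1, the classical target of the aryl hydrocarbon receptor, had 0.135, 0.103 and 0.4696 TPM in SNU2535, against 58.4, 50.9 and 57.01 TPM in NCI-H3122, which placed it near 0 in SNU2535. Its receptor's partners ARNT (SNU2535 17.5 ± 0.43, NCI-H3122 91.7 ± 1.4 TPM) and ARNT2 (SNU2535 1.29 ± 0.25, NCI-H3122 7.84 ± 0.91 TPM) were lower too. The 20 neighbours of ARNT had a median difference of -2.01, and the part of position was not tested.

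Most glycolytic and lactate genes were called, as were 80.5% of all tested genes. Of the 48 genes of glycolysis and lactate listed, 34 passed the filter on low values. Of those, 7 were at least 2-fold higher and 1 at least 2-fold lower in SNU2535 (median difference 0.33). At any size of difference 24 were called higher and 6 lower. Over all tested genes 47.6% and 33.0% were, and 23.1% and 11.5% by at least 2-fold. FBP1, which opposes glycolysis by removing a phosphate from fructose-1,6-bisphosphate, had 849.7, 845 and 894 TPM in SNU2535, against 6.52, 6.400 and 6.46 TPM in NCI-H3122. Hexokinases differed by member: HKDC1 averaged 42.8 ± 1.5 TPM in SNU2535 and 0.0393 ± 0.035 TPM in NCI-H3122 and HK2 58.04 ± 1.5 TPM in SNU2535 and 195 ± 6.5 TPM in NCI-H3122. LDHA averaged 1395 ± 17 TPM in SNU2535 and 781 ± 18 TPM in NCI-H3122 and LDHB 709.6 ± 9.2 TPM in SNU2535 and 1393 ± 53 TPM in NCI-H3122, in opposite directions. The glucose importer SLC2A1 averaged 244 ± 11 TPM in SNU2535 and 396 ± 4.7 TPM in NCI-H3122. Pyruvate kinase PKM had 1493, 1534 and 1498 TPM in SNU2535, against 1533, 1547 and 1534 TPM in NCI-H3122 and did not pass (difference -0.028, limma adjusted p = 0.248), but was called lower under median-ratio scaling (-0.23) and higher under quantile normalization (0.11). Among 13 listed mitochondrially encoded mRNAs, all 13 were tested. In SNU2535, 0 of these were higher and 1 lower by at least 2-fold, with a median difference of -0.31. The largest difference among these was MT-ND1, with 4067, 3032 and 3265 TPM in SNU2535, against 6037, 8419 and 7498 TPM in NCI-H3122 (difference -1.08, or -0.62 under quantile normalization, which also turned the list's median to above that of all genes). Of the 24 hypoxia-induced genes listed, all 24 passed the filter on low values. Of those, 10 were at least 2-fold higher and 4 at least 2-fold lower in SNU2535 (median difference 0.31). CA9, a carbonic anhydrase that HIF1A induces, had 46.4, 45.8 and 43.7 TPM in SNU2535, against 0.0664, 0.0876 and 0.0838 TPM in NCI-H3122. The mitophagy receptor BNIP3 was higher (SNU2535 49.3 ± 0.14, NCI-H3122 4.82 ± 0.33 TPM) and CA12 lower (SNU2535 0.173 ± 0.083, NCI-H3122 4.303 ± 0.39 TPM).

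Among lipid genes more were higher than lower in SNU2535 by at least 2-fold, as over all tested genes (23.1% and 11.5%). Of the 43 genes of cholesterol and fatty acid synthesis listed, 41 passed the filter on low values. Of those, 15 were at least 2-fold higher and 1 at least 2-fold lower in SNU2535 (median difference 0.48). The desaturases SCD (SNU2535 1717 ± 29, NCI-H3122 709 ± 20 TPM) and SCD5 (SNU2535 56.3 ± 0.51, NCI-H3122 4.86 ± 0.13 TPM) and the acyl-CoA synthetases ACSL1 (SNU2535 178 ± 1.3, NCI-H3122 17.6 ± 0.47 TPM) and ACSL5 (SNU2535 91.6 ± 2.3, NCI-H3122 3.77 ± 0.72 TPM) were higher. FASN had 260.2, 276 and 276 TPM in SNU2535, against 272, 256 and 278 TPM in NCI-H3122 and did not pass (difference 0.011, limma adjusted p = 0.809). Under median-ratio scaling it was called lower in SNU2535 (-0.19, limma adjusted p = 4.92e-04). Leaving out NCI-H3122 replicate 2, SNU2535 replicate 2 or SNU2535 replicate 3 gave -0.02, -0.0031 and -0.0026. SQLE (SNU2535 48.5 ± 3.6, NCI-H3122 97.2 ± 3.1 TPM) and DHCR7 (SNU2535 135 ± 3.2, NCI-H3122 218 ± 3.8 TPM), enzymes of cholesterol synthesis, were lower by less than 2-fold. The elongase ELOVL5 (SNU2535 59.2 ± 2.1, NCI-H3122 123 ± 4.1 TPM) was lower by more.

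Amino acid genes held sharp single differences. Among 52 listed amino acid, one-carbon and urea cycle genes, 43 were tested. In SNU2535, 13 of these were higher and 6 lower by at least 2-fold, with a median difference of 0.27. MTAP (chr9:21802543-21937651, plus strand), which salvages methionine and adenine from methylthioadenosine, had 10.5, 9.601 and 9.997 TPM in SNU2535 and was listed at 0 in every NCI-H3122 and NCI-H2228 library. Its neighbours on chromosome 9, the CDK inhibitors CDKN2A and CDKN2B, were listed at 0 in all libraries of all 3 lines. CTH, which makes cysteine from cystathionine, averaged 37.97 ± 1.6 TPM in SNU2535 and 3.502 ± 0.55 TPM in NCI-H3122, and NAMPT, the rate-limiting enzyme of NAD salvage, 771 ± 27 TPM in SNU2535 and 56.3 ± 1.8 TPM in NCI-H3122. PHGDH, which starts serine synthesis, averaged 18.6 ± 1.5 TPM in SNU2535 and 63.8 ± 0.81 TPM in NCI-H3122, and mitochondrial MTHFD1L was lower as well (SNU2535 30.6 ± 2.4, NCI-H3122 123 ± 1.4 TPM). The leucine importer SLC7A5 had 433, 465 and 454 TPM in SNU2535, against 2283, 2243 and 2249 TPM in NCI-H3122. The phosphate importer SLC20A1 was lower (SNU2535 65.2 ± 1.5, NCI-H3122 333 ± 7.0 TPM) and the iron exporter SLC40A1 higher (SNU2535 41.1 ± 0.29, NCI-H3122 2.84 ± 0.35 TPM). Of the 45 nutrient and drug transporters listed, 38 passed the filter on low values. Of those, 13 were at least 2-fold higher and 9 at least 2-fold lower in SNU2535 (median difference 0.13).

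Few proliferation transcripts differed by 2-fold or more, but at any size more were called lower than higher in SNU2535. Of the 40 proliferation genes listed, all 40 passed the filter on low values. Of those, 2 were at least 2-fold higher and 2 at least 2-fold lower in SNU2535 (median difference -0.11). Over all tested genes 34.6% differed by that much. At any size 11 of the 40 were called higher and 21 lower, beside 47.6% and 33.0% of all tested genes. MKI67, present in cycling cells, had 148, 139 and 134 TPM in SNU2535, against 147, 128 and 133 TPM in NCI-H3122 and did not pass (difference 0.046, limma adjusted p = 0.488). It was called lower in SNU2535 under median-ratio scaling (-0.16, limma adjusted p = 0.0318) and lay at -0.061 under quantile normalization, where it was not called. TTK (SNU2535 17.5 ± 0.90, NCI-H3122 61.6 ± 0.44 TPM) and BUB1B (SNU2535 58.4 ± 2.5, NCI-H3122 137 ± 2.6 TPM), both of the spindle checkpoint, were lower. CENPE (SNU2535 26.8 ± 1.4, NCI-H3122 11.3 ± 0.99 TPM) and GINS2 (SNU2535 57.8 ± 2.1, NCI-H3122 26.6 ± 1.3 TPM) were higher. Neither CENPE nor GINS2 kept a 2-fold difference under both median-ratio scaling and quantile normalization. Among cell cycle regulators, the CDK inhibitor CDKN1A was higher (SNU2535 632 ± 24, NCI-H3122 263 ± 16 TPM). CDK6 was lower (SNU2535 8.06 ± 0.66, NCI-H3122 24.8 ± 0.64 TPM), and the CDK4 and CDK6 inhibitor CDKN2C (SNU2535 65.5 ± 3.5, NCI-H3122 5.104 ± 0.086 TPM) and cyclin CCNE1 (SNU2535 30.5 ± 1.5, NCI-H3122 13.7 ± 0.42 TPM) were higher. Among 28 listed cyclins, CDKs and their inhibitors, 26 were tested. In SNU2535, 6 of these were higher and 5 lower by at least 2-fold, beside 23.1% and 11.5% of all tested genes. Their median difference was 0.21.

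Survival genes of the BCL2 family went in both directions. Of the 34 BCL2 family genes and death effectors listed, 32 passed the filter on low values. Of those, 13 were at least 2-fold higher and 4 at least 2-fold lower in SNU2535 (median difference 0.44). MCL1 (chr1:150574551-150579738, minus strand), an antiapoptotic member, had 335, 351 and 357 TPM in SNU2535, against 2001, 1878 and 1915 TPM in NCI-H3122, a difference of -2.47 (SE 0.035, limma adjusted p = 1.28e-09). BCL2L1, which encodes BCL-XL, went the other way with 334, 333 and 323 TPM in SNU2535, against 123, 120.4 and 123 TPM in NCI-H3122. In level MCL1 exceeded BCL2L1 in NCI-H3122, and the 2 transcripts lay close to each other in SNU2535. The BH3-only genes BMF (SNU2535 56.7 ± 3.7, NCI-H3122 175 ± 3.8 TPM) and BCL2L11 (SNU2535 10.2 ± 0.65, NCI-H3122 18.98 ± 0.75 TPM), which encodes BIM, were lower in SNU2535. The caspases CASP10 (SNU2535 14.3 ± 0.57, NCI-H3122 0.202 ± 0.047 TPM) and CASP1 (SNU2535 5.73 ± 0.49, NCI-H3122 listed at 0) were higher. The 20 neighbours of MCL1 had a median of -1.08; the part of position was not tested.

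Of the 43 tumour suppressors listed, 39 passed the filter on low values. Of those, 10 were at least 2-fold higher and 3 at least 2-fold lower in SNU2535 (median difference 0.29), beside 23.1% and 11.5% of all tested genes. The kinase STK11 averaged 40.5 ± 1.2 TPM in SNU2535 and 33.00 ± 0.44 TPM in NCI-H3122. Its difference of 0.29 was not called under median-ratio scaling (0.088) or quantile normalization (0.082). The chromatin remodeller SMARCA4 averaged 81.7 ± 3.8 TPM in SNU2535 and 113 ± 4.8 TPM in NCI-H3122, lower by less than 2-fold. DAPK1, a kinase that promotes cell death, averaged 42.1 ± 1.0 TPM in SNU2535 and 0.389 ± 0.067 TPM in NCI-H3122 and RASSF2 10.9 ± 0.61 TPM in SNU2535 and 0.226 ± 0.16 TPM in NCI-H3122. Cereblon, the ligase that many molecular glues engage, was examined next. Among 23 listed genes of the cereblon ligase and its known neosubstrates, 20 were tested. In SNU2535, 2 of these were higher and 1 lower by at least 2-fold, with a median difference of 0.015. CRBN, the substrate receptor, had 4.91, 4.85 and 4.73 TPM in SNU2535, against 5.44, 4.68 and 5.02 TPM in NCI-H3122 and did not pass (difference -0.049, limma adjusted p = 0.569), but was called lower under median-ratio scaling (-0.22) and quantile normalization (-0.42). DDB1, which links it to the ligase, averaged 96.9 ± 1.8 TPM in SNU2535 and 71.8 ± 1.3 TPM in NCI-H3122 (difference 0.43, or 0.23 under median-ratio scaling). The neosubstrate IKZF3, a lymphoid factor, averaged 4.16 ± 0.35 TPM in SNU2535 and 0.0439 ± 0.036 TPM in NCI-H3122. The labels do not name the ligase that TRI-611 uses.

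Position along the chromosomes was examined because many of the genes above had neighbours that differed in the same direction. Windows of 20 consecutive tested protein-coding genes were ordered by their median difference. On chromosome 1 the window from PRUNE1 to TUFT1 (GRCh38, 151008420 to 151583583) had a median of -2.68, and 15 of its 20 genes were at least 2-fold lower in SNU2535. The window from S100A14 to HAX1 (153614255 to 154275875) had a median of -2.48 with 16 of 20 genes lower by that much. MCL1, ARNT and S100A2 lie in or beside these windows. On chromosome 14 the window from DTD2 to SFTA3 (31446036 to 36513829), which ends short of NKX2-1, had a median of -2.05, although the chromosome as a whole lay above the median of all genes. Neighbour medians were quoted above mostly for genes lower in SNU2535, but higher genes had such neighbours too. On chromosome 16 the window from CDH3 to PDPR (68636189 to 70162537) spans CDH1 and NQO1 and had a median of 1.02. In it 11 of 20 genes were at least 2-fold higher and 0 at least 2-fold lower in SNU2535. The median over the tested protein-coding genes of chromosome 6 was -0.66 and of chromosome 14 0.85, with chromosomes 16 and 4 at 0.73 and 0.72. The highest window of chromosome 6, at 1.96, holds histone genes. Of the chromosome 6 genes named above, 10 (DSP, IFNGR1, FOXO3, NT5E, ULBP2, MTHFD1L, TTK, ME1, TSPYL1 and CTGF) had neighbour medians between -1.24 and -1.02. The others (IER3, ELOVL5, CDKN1A, MUC21, HLA-B, TAP1, HLA-DRA and HLA-DQB1) had neighbour medians between -0.27 and 1.23. The part of position in any of these results was not tested.

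**Figure D5:**
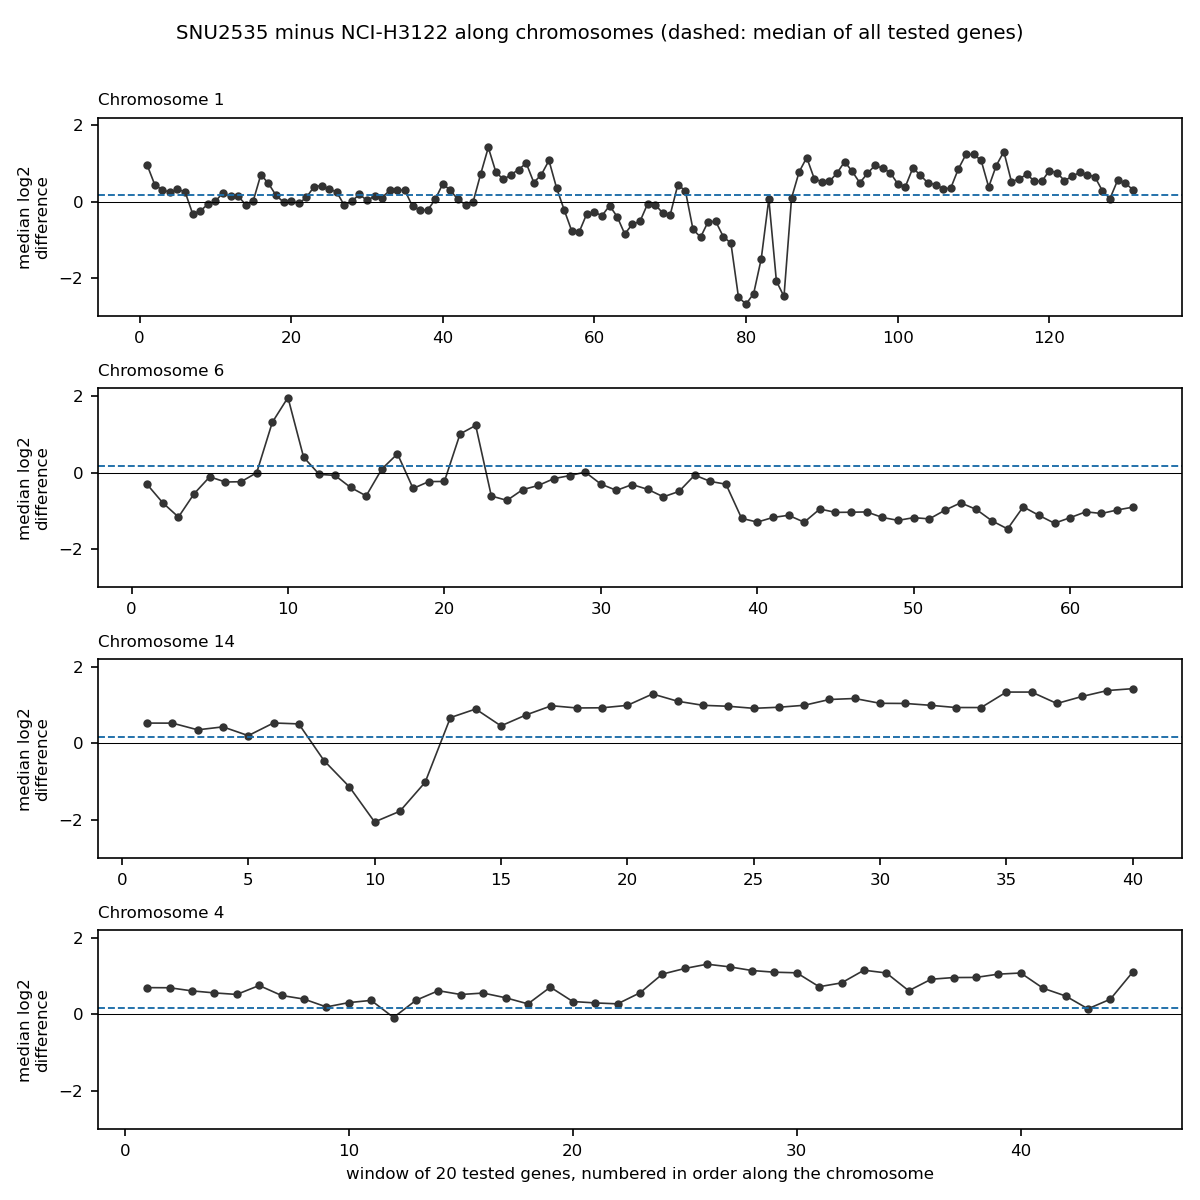
Median log2 difference (SNU2535 minus NCI-H3122, vertical axis) in overlapping windows of 20 tested protein-coding genes, numbered in order along chromosomes 1, 6, 14 and 4 (horizontal axis). The dashed line lies at the 0.17 of all tested genes, protein-coding or not. A stretch of chromosome 1 reaches -2.68 and a stretch of chromosome 14 reaches -2.05, and the later windows of chromosome 6 lie near -1.

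The differences were set beside the TRI-611 libraries of the same lines, which the comparison above did not use. There 78.0% of genes were called and 33.6% at least 2-fold. Of the 3829 genes at least 2-fold higher in SNU2535 with DMSO, 3737 (97.6%) were called in the same direction with TRI-611, and of the 1905 lower ones 1839 (96.5%) were. At least 2-fold again were 3181 of the higher genes (83.1%) and 1661 of the lower ones (87.2%). These libraries share lines and batches with the DMSO libraries, and the shares are a description.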

How the data were processed

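RNA-seq values of 18 libraries were deposited by the authors as TPM per gene in 1 table, and the 6 DMSO libraries of SNU2535 and NCI-H3122 entered the fit. Per the submitters' processing notes, fastp 0.23.1, STAR 2.5.2b, featureCounts, Subread 1.5.2 and DESeq2 were used with GRCh38, without their order or role. Per the labels' protocols, RNA was poly-A selected and libraries carried unique molecular identifiers. Not given in the sources used here are the gene annotation, the strand setting, the handling of identifiers and the derivation of TPM. TPM keep no read depth, so depth per library is unknown and no counting interval is given, and without strand a gene cannot be told apart from an antisense neighbour. From these values log2(TPM + 1) was computed, with the filter of 1 TPM in at least 3 of the 6 libraries. The lines were compared with limma 3.58.1 in R 4.3.3 (trend and robust eBayes, two-sided, Benjamini-Hochberg over all 16593 genes tested), checked first on simulated data. Tables and figures used Python 3.11.15, pandas 2.3.3 and matplotlib 3.10.9. Coordinates come from GENCODE 29 (GRCh38), which matched 56898 of 57500 identifiers, and 485 identifiers had no name and were not named here. Neighbour medians are over the 10 tested protein-coding genes on either side. Genes are named by a rule: ALK and EML4, anchor genes of each list, the 12 largest called differences in each direction among protein-coding genes whose lines do not overlap, and up to 3 called members per list and direction. Some genes and 1 gene list are not reported here. The members and the 55 lists were chosen with earlier results of these data known. HLA-F, CYP4F11 and markers of other cell types quoted at or near 0 fall outside the rule and were chosen after their values were seen. The batch number of the labels equals the replicate number; across lines, same-numbered libraries deviated from their means with r = 0.04, -0.01 and -0.01, so it was not used to pair them. Alternatives covered pseudocounts, filters, scalings, the samples in the fit, the batch number as a block and the omission of each library.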

Additional observations from a re-analysis of the deposited data

How the results depend on the processing

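The counts of called genes, the list medians and the named genes were recomputed under other pseudocounts (0.1 and 5), filters, scalings, fits over 9 or 18 libraries, eBayes settings, gene sets and a minimum-effect test. A pseudocount of 5 left 3126 genes with a difference of at least 2-fold, 2101 higher and 1025 lower in SNU2535. A test against a minimum log2 difference of 1 called 4185 genes, 2868 higher and 1317 lower. At least 2-fold calls numbered 3261 higher and 2436 lower under median-ratio scaling and 2831 higher and 2856 lower under quantile normalization, and 5166 and 4727 of the 5734 main calls were kept under these scalings. Leaving out 1 library at a time gave 12870 to 13125 called genes (7625 to 7781 higher, 5203 to 5405 lower) and 5690 to 5774 of at least 2-fold (3768 to 3870 higher, 1888 to 1931 lower). The numbers of the batches did not pair the samples. With the batch number as a block, 3828 genes were at least 2-fold higher and 1907 lower, and the block changed no call among the named genes. Genes with a difference close to 0 changed sign. Under median-ratio scaling and quantile normalization, CTGF lay at -0.158 and -0.229, EGR1 at -0.150 and -0.154, FASN at -0.193 and -0.0662 and MKI67 at -0.158 and -0.0609. PKM lay at 0.112 under quantile normalization. Leaving out 1 library at a time moved CTGF between -0.0574 and 0.195, EGR1 between -0.306 and 0.255 and FASN between -0.0236 and 0.0395. Without mitochondrially encoded genes CTGF lay at -0.00136 and FASN at -0.0279. Of these, EGR1 was called lower in SNU2535 without SNU2535 replicate 3, FASN and MKI67 were called lower under median-ratio scaling, and PKM was called lower under that scaling (-0.233) and without mitochondrially encoded genes (-0.0671), and higher under quantile normalization. Of 275 named genes, 50 that were called in the main fit were not called in the test against a minimum log2 difference of 1. Of 52 list medians relative to the median of all genes, 9 changed sign under at least 1 alternative. Gut and liver products (-0.675) lay at 0.302 and 0.0304 under the looser filters, receptor tyrosine kinases (0.0153) at -0.366 with a filter of 5 TPM, and mitochondrially encoded mRNAs (-0.475) at 0.128 under quantile normalization. The other 6 were the ALK receptor with its ligands and adaptors, amino acid genes, cyclins and CDKs, HOX genes, the Notch pathway and nutrient transporters, whose changed values lay between -0.0774 and 0.134. The cause was not tested. TPM carry no read counts, so the counting error of low genes is unknown.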

Other observations

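Positional identity genes and silenced germline genes had not been described above. Of the 39 HOX genes listed, 18 passed the filter on low values. Of those, 8 were at least 2-fold higher and 3 at least 2-fold lower in SNU2535 (median difference 0.49). HOXD4, a homeobox gene that sets position along the body axis, averaged 12.1 ± 0.66 TPM in SNU2535 and 0.0333 ± 0.058 TPM in NCI-H3122, and HOXA3 averaged 0.115 ± 0.070 TPM in SNU2535 and 23.3 ± 0.76 TPM in NCI-H3122. HOXC10, a gene of the posterior body, averaged 1.79 ± 0.34 TPM in SNU2535 and 32.4 ± 1.3 TPM in NCI-H3122. HOXD4 was thus near 0 in NCI-H3122 and HOXA3 in SNU2535. Of the 44 cancer-testis antigens listed, 4 passed the filter on low values. Of those, 1 was at least 2-fold higher and 2 at least 2-fold lower in SNU2535 (median difference -1.59). DDX43, an RNA helicase normally restricted to the germ line, averaged 0.0184 ± 0.032 TPM in SNU2535 and 25.1 ± 2.0 TPM in NCI-H3122, and its 20 neighbours on chromosome 6 had a median difference of -1.26.

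The ERK cascade and surface antigens were counted as well. Among 28 listed ERK cascade genes, 25 were tested. In SNU2535, 6 of these were higher and 4 lower by at least 2-fold, with a median difference of 0.49. Over all tested genes the shares were 23.1% higher and 11.5% lower, and those of the ERK cascade lay near them. RASGRF1, an exchange factor for RAS, averaged 0.776 ± 0.13 TPM in SNU2535 and 4.096 ± 0.19 TPM in NCI-H3122, and the kinase RPS6KA6 averaged 4.84 ± 0.50 TPM in SNU2535 and 0.664 ± 0.18 TPM in NCI-H3122. Of the 30 surface antigens of drug interest listed, 27 passed the filter on low values. Of those, 13 were at least 2-fold higher and 3 at least 2-fold lower in SNU2535 (median difference 0.95). Mesothelin and the phosphate importer SLC34A2, both targets of antibody drugs, are described with the alveolar products, and CDH6 with the mesenchymal genes.

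Genes with 1 TPM or more in 1 line and under 0.1 TPM in the other were counted without a test. In SNU2535, 242 protein-coding genes had 1 TPM or more in every library while every NCI-H3122 library stayed under 0.1 TPM, and 9 of these reached 100 TPM in every library. The reverse held for 133 protein-coding genes, of which 3 reached 100 TPM. In the other line, 104 of the 242 and 79 of the 133 were listed at 0 in every library. The counts describe these 6 libraries and depend on the depth, which TPM do not keep.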
